A study of Homo sapiens with 3 samples.

Results

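The hairpins hsa-mir-33a, hsa-mir-3155a, hsa-mir-6087, hsa-mir-663a and hsa-mir-7854 of the miRBase annotation had most of their small RNA counts outside their mature arms. They were selected on these measured values: a hairpin needed at least 100 counts summed over 3 libraries, at least 1 arm with a row of its own, and more than 50% of its counts not assigned to an arm. The rule found 5 of the 396 hairpins that had the minimum count and a listed arm, which is 1.26%, and 626 of the 661 hairpins had a listed arm at any count. All 5 were among the 317 of the 396 whose arms each have a single row. For the rest, the counts of all rows of an arm were set against each hairpin, which lowers the share. Because the members were selected on it, the outside share is given as a description, with no test.

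The libraries were 3 replicates of a single group of MV4-11, a cell line from a human acute myeloid leukemia (AML) in which the receptor kinase FLT3 has an internal tandem duplication (FLT3-ITD). The cells were labelled wild type, carried an empty-vector (EV) lentiviral CRISPR-Cas9 construct, and were grown for 2 weeks after infection. Small RNA libraries were made from total RNA with a New England Biolabs kit. There was no second group, and nothing in the labels says whether the replicates were separate cultures, so errors and p-values measure only the spread between these 3 libraries of 1 cell line.

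A miRNA is cut from a hairpin-shaped precursor, first by Drosha in the nucleus and then by Dicer in the cytoplasm, and the mature strands are retained on Argonaute proteins. The rest of the hairpin, which is the terminal loop, the base of the stem and any strand that is not retained, is usually degraded, and small RNA reads therefore fall mostly on the annotated arms. miR-33a is encoded in an intron of SREBF2, the gene of a transcription factor that switches on cholesterol synthesis and uptake, and its 5p strand is known to repress ABCA1, an exporter of cholesterol from cells. Its paralog miR-33b lies in an intron of SREBF1, the sister gene that governs fatty acid synthesis. Some annotated miRNAs lie in or resemble the repeated ribosomal RNA genes: hsa-mir-3648 and hsa-mir-3687 lie in the ribosomal DNA repeat, and the sequence of miR-6087 is known to resemble 28S ribosomal RNA.

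The sequences of 3 of the 5 hairpins are shown because they give the bases outside the annotated arms. They are RefSeq sequences of build GRCh38.p14, written 5′ to 3′ with the annotated mature arms in capitals, and the hairpin of the paralog miR-33b is added for comparison.
hsa-mir-33a: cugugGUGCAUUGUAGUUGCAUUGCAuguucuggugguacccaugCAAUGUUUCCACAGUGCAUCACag
hsa-mir-33b: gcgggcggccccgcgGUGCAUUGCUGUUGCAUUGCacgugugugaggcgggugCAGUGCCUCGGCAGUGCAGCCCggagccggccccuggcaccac
hsa-mir-3155a: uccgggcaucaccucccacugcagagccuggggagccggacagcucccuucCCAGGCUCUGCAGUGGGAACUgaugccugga
hsa-mir-7854: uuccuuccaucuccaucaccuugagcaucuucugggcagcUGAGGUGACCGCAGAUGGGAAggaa
In hsa-mir-33a both strands are annotated as arms, and what is left is the loop of 19 bases at positions 27 to 45, 5 bases at the 5′ end and 2 bases at the 3′ end. In hsa-mir-3155a and hsa-mir-7854 only the 3p strand is annotated, so the whole opposite strand (inside positions 1 to 51 and 1 to 40) counts as outside.

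The mature sequences are shown with the seed, bases 2 to 8, in capitals, because the seed is the part that pairs with target mRNAs and defines a miRNA family.
hsa-miR-33a-5p: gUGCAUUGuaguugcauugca
hsa-miR-33b-5p: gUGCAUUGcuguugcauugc
hsa-miR-33a-3p: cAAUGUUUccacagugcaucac
hsa-miR-33b-3p: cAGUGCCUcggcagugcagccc
hsa-miR-3155a: cCAGGCUCugcagugggaacu
hsa-miR-663a: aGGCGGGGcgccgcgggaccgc
hsa-miR-7854-3p: uGAGGUGAccgcagaugggaa
miR-33a-5p and miR-33b-5p shared the seed and differed at U9C and A10U, counted from the 5′ end with the base of miR-33a first, and miR-33a-5p was 1 base longer. Their 3p strands had different seeds. The seed of miR-3155a was shared with miR-3155b and with miR-484, and the seed of miR-663a with miR-1908-5p, miR-6787-5p and miR-10396b-5p. Of these seed relatives miR-484 had 15037, 26056 and 39600 counts in replicates 1, 2 and 3 and miR-1908-5p 164, 157 and 201, above those of miR-3155a and miR-663a in every library. miR-3155b, miR-6787-5p and miR-10396b-5p had no row among the mature miRNAs. miR-33a-3p and miR-7854-3p shared their seeds with no other human miRNA of the RefSeq table.

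The hairpin tables held 12722997, 11022587 and 11715711 counts in replicates 1, 2 and 3. Blood markers were high in every library: miR-142-3p had 58425 to 180242 counts, miR-142-5p 39809 to 78678, miR-155-5p 267606 to 304911 and miR-223-3p 24432 to 78858. The erythroid markers miR-451a and miR-144-3p had 10 to 24 and 13 to 23 counts and the liver marker miR-122-5p 45 to 82. The epithelial marker miR-200c-3p had 1164 to 1968 counts, and miR-205-5p, the other epithelial marker looked up, had no row.

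hsa-mir-6087 and hsa-mir-33a were the abundant members, and the other 3 hairpins were near the minimum count. Levels are compared as deposited FPKM, the count of a feature corrected for its length and for library size. hsa-mir-6087 had 8715, 11618 and 8488 FPKM (mean 9607 ± 1745, SD, n = 3) and ranked 95th of 661 hairpins. hsa-mir-33a had 3997, 7946 and 7927 FPKM (6623 ± 2274) and ranked 100th. Its level in replicate 1 was the low one, and in every library its FPKM was below that of hsa-mir-6087. In replicate 3 that order rested on the length correction, with 69 bases against 49. Per 1000000 hairpin counts, hsa-mir-33a had 272, 540 and 539 and hsa-mir-6087 had 418, 558 and 407. Without the correction hsa-mir-33a was thus the higher one in replicate 3.

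hsa-mir-3155a followed with 88.3, 86.2 and 78.0 FPKM (84.2 ± 5.46), hsa-mir-7854 with 62.6, 62.4 and 48.0 FPKM (57.7 ± 8.37) and hsa-mir-663a with 40.1, 62.1 and 35.2 FPKM (45.8 ± 14.3). The ranges of hsa-mir-7854 and hsa-mir-663a overlapped, so their order was within the spread between libraries, while all 3 libraries of hsa-mir-3155a lay above both. Their ranks were 319, 350 and 371 of 661.

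The spread of the members between libraries was near the median of hairpins of similar counts. With counts scaled by the median of ratios, the coefficient of variation was 21.4% for hsa-mir-33a and 20.3% for hsa-mir-6087, and the median over the 156 hairpins with at least 1000 counts in every library was 20.2%. It was 23.5% for hsa-mir-3155a, 30.7% for hsa-mir-663a and 29.2% for hsa-mir-7854, and the median over the 99 hairpins with at least 100 and under 300 summed counts was 25.9%.

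**Figure D1:**
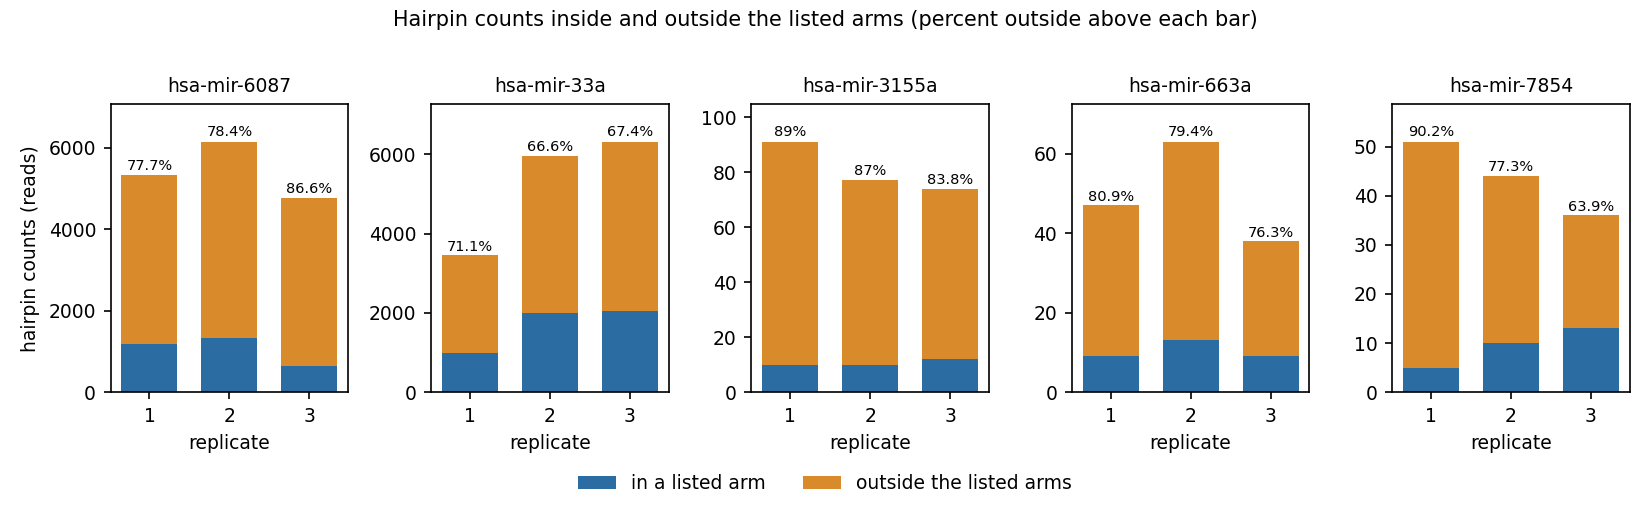
Counts of the 5 hairpins in each of the 3 libraries (linear scale, with a separate axis for each hairpin), as stacked bars of counts on the listed arms and counts outside them. In every hairpin and library the outside counts exceed the arm counts, and hsa-mir-33a and hsa-mir-6087 have over 1000 counts in every library where the other 3 have fewer than 100.

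Hairpin hsa-mir-33a is the host of the cholesterol regulator miR-33a, and its counts fell mostly outside both annotated strands. The hairpin had 3459, 5957 and 6316 counts in replicates 1, 2 and 3, of which 999, 1990 and 2056 were on its arms. The outside share was 71.1% (Wilson 95% interval 69.6 to 72.6), 66.6% (65.4 to 67.8) and 67.4% (66.3 to 68.6), with a mean of 68.4% ± 2.40 (SD, n = 3). Replicate 1 was the highest and its interval did not overlap those of the others. These and all other intervals cover counting error only and treat reads as independent. Reads without molecular identifiers are not independent molecules, so the intervals can be too narrow.

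The arms of hsa-mir-33a cover 43 of its 69 bases and leave 37.7% of the bases outside, while 67.9% of the summed counts were not assigned to an arm. Per annotated base, counts outside the arms were 4.07, 3.30 and 3.43 times those on the arms. The tables do not say where in the hairpin an outside count lies, and how a read that overlaps an arm only in part was counted is not given in the sources used here. A read longer than an arm and a read of the loop can therefore not be told apart in these values. The same limit holds for the values per base of the other hairpins.

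hsa-mir-6087 was the highest of the 5 by FPKM and had the most counts outside of any hairpin whose arms each have a single row. It had 5323, 6148 and 4774 counts, with 1186, 1328 and 640 on its single arm of 18 bases. The outside share was 77.7% (76.6 to 78.8), 78.4% (77.4 to 79.4) and 86.6% (85.6 to 87.5), mean 80.9% ± 4.94. Replicate 3 stood above the others, and its interval did not overlap theirs.

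Scaled by the median of ratios, the arm of hsa-mir-6087 had 1321, 1321 and 554 counts and the rest of the hairpin 4609, 4795 and 3579. Replicates 1 and 2 were alike in both, and replicate 3 was low in both. The coefficient of variation over the 3 libraries, 41.6% for the arm and 15.1% outside it, thus rested on replicate 3. The same values were 27.9% and 18.4% for hsa-mir-33a, and the arm had the lower one in hsa-mir-3155a (5.75% and 26.4%), hsa-mir-663a (25.1% and 32.4%) and hsa-mir-7854 (33.4% and 44.9%). The 31 bases outside the arm of hsa-mir-6087 make up 63.3% of its 49 bases, and counts per base outside were 2.03, 2.11 and 3.75 times those on the arm. A read longer than this arm of 18 bases cannot be told apart from a read elsewhere in the hairpin.

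hsa-mir-3155a had 91, 77 and 74 counts, of which only 10, 10 and 12 were on the annotated 3p strand. The outside share was 89.0% (80.9 to 93.9), 87.0% (77.7 to 92.8) and 83.8% (73.8 to 90.5), mean 86.6% ± 2.64, the highest of the 5. The intervals overlapped between all libraries. The 61 bases outside the arm are 74.4% of the hairpin, and counts per base outside were 2.79, 2.31 and 1.78 times those on the arm.

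hsa-mir-663a had 47, 63 and 38 counts with 9, 13 and 9 on its arm. The outside share was 80.9% (67.5 to 89.6), 79.4% (67.8 to 87.5) and 76.3% (60.8 to 87.0), mean 78.8% ± 2.31. Its arm covers 22 of 93 bases, so 76.3% of the bases are outside. Counts per base outside were 1.31, 1.19 and 0.998 times those on the arm, ratios that rest on 9 to 13 arm counts a library.

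hsa-mir-7854 had 51, 44 and 36 counts with 5, 10 and 13 on its 3p arm. The outside share was 90.2% (79.0 to 95.7), 77.3% (63.0 to 87.2) and 63.9% (47.6 to 77.5), mean 77.1% ± 13.2, the widest spread of the 5. In replicate 3 the interval reached below 50%, and counts per base outside were 0.844 times those on the arm, against 4.39 and 1.62 in replicates 1 and 2. At this depth a share above 50% was therefore not resolved in replicate 3.

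The arms themselves give the levels a mature miRNA table would report. By mean FPKM miR-33a-5p had 5438 ± 1912, miR-6087 5274 ± 1951 and miR-33a-3p 1735 ± 945 (SD, n = 3). The levels of miR-33a-5p and miR-6087 differed by less than the spread between libraries. miR-3155a had 45.4 ± 5.99, miR-663a 42.2 ± 12.3 and miR-7854-3p 40.3 ± 18.5, which also did not differ beyond their spread.

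**Figure D2:**
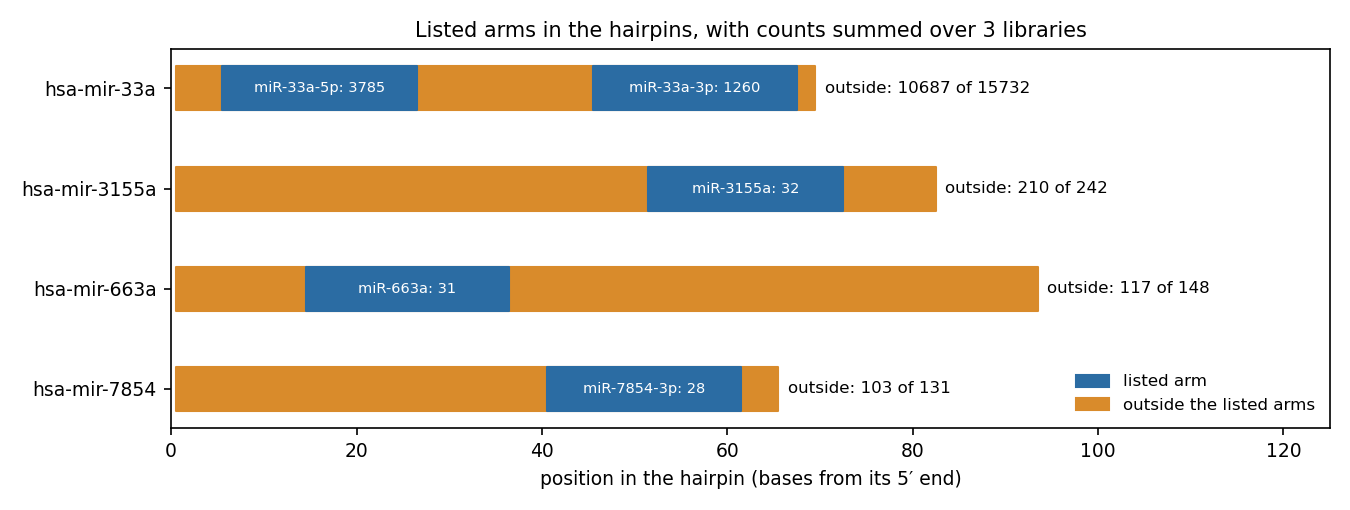
Map of the annotated hairpins with positions in bases from the 5′ end of the hairpin, drawn to scale, with the listed arms as filled boxes. The arms of hsa-mir-33a cover 43 of 69 bases and leave a loop of 19 bases, while hsa-mir-3155a and hsa-mir-7854 have an arm on the 3p strand only.

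Across all hairpins a majority of counts on the arms was the rule. Arms that several hairpins share carry counts that cannot be assigned to 1 hairpin, so the background is given for the 317 hairpins with the minimum count whose arms each have a single row. Their median outside share was 0.242%, 30 were above 10%, 11 above 25% and 5 above 50%. In 8 of them the arm counts exceeded the hairpin counts, and the lowest value was −8.13%.

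hsa-mir-33a is the only member with both arms listed, and 4 of the 5 had 1 listed arm. Among the 169 hairpins with 2 listed arms the median outside share was 0.0591% and the 90th percentile 2.68%, and the highest after hsa-mir-33a was hsa-mir-4707 with 19.9% of 156 counts. Among those with 1 listed arm the median was 1.24% and the 90th percentile 19.9%. A typical hairpin with 1 listed arm has 73.3% of its bases outside it, and with 2 arms 49.4%, so the length left outside hsa-mir-33a was shorter than is usual.

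The 5 hairpins held 24208 of the 62013 outside counts of these 317 hairpins, or 39.0%, and 0.113% of their hairpin counts. hsa-mir-6087 ranked 1st and hsa-mir-33a 2nd by outside counts, followed at a distance by hsa-mir-3155a at 32nd, hsa-mir-663a at 44th and hsa-mir-7854 at 50th. Over the other 312 hairpins together the outside share was 0.119%, 0.134% and 0.144% in replicates 1, 2 and 3.

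**Figure D3:**
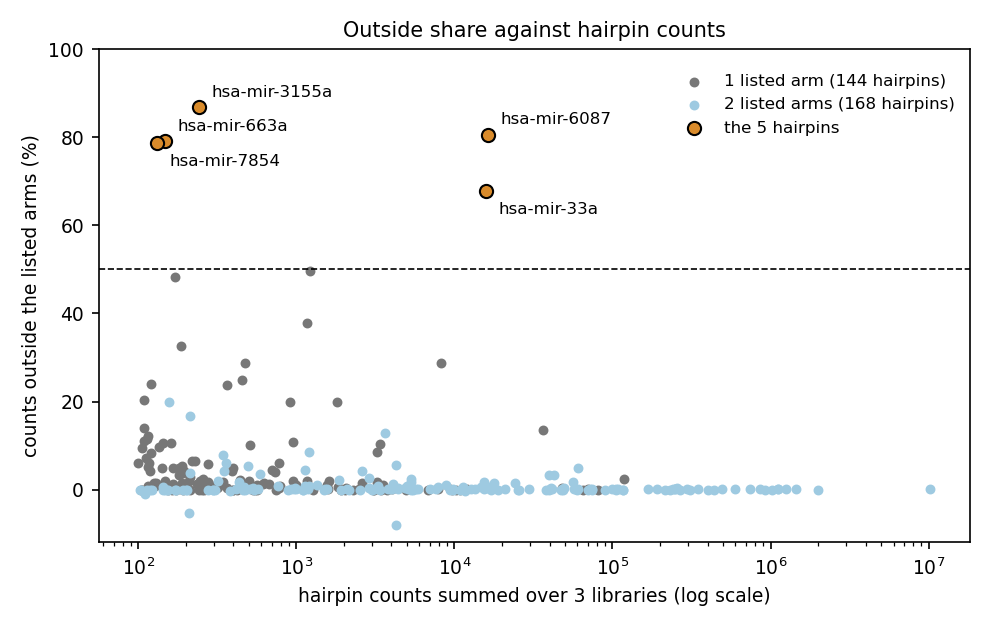
Share of counts outside the listed arms against hairpin counts summed over 3 libraries (log scale) for 317 hairpins, with the 5 hairpins in orange and the line at 50%. Most hairpins lie near 0%, hsa-mir-33a and hsa-mir-6087 are the only ones above the line with at least 1000 counts, and hsa-mir-3653 and hsa-mir-3939 lie just under the line.

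The hairpins next to the threshold were close to it on the lower side. The members nearest above were hsa-mir-33a at 67.9%, hsa-mir-7854 at 78.6% and hsa-mir-663a at 79.1% of summed counts. Below it were hsa-mir-3653 at 49.6%, hsa-mir-3939 at 48.2% and hsa-mir-2110 at 37.9%. In replicate 3 alone hsa-mir-3653 had 67.7% and hsa-mir-3939 57.8%, above 50%, against 48.3% and 43.3% and against 34.7% and 49.1% in replicates 1 and 2. A further 2 hairpins were over 50% but had fewer than 100 counts.

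The selection used the sum of the miR-33a arms and not their ratio. That ratio covers only the counts assigned to an arm, 5045 of 15732 over the 3 libraries. The 10687 outside counts could not be assigned to a strand, so the dominant strand of the whole hairpin was not resolved. miR-33a-5p had 825, 1491 and 1469 counts and miR-33a-3p 174, 499 and 587, so the 5p strand was 4.74, 2.99 and 2.50 times the 3p strand. It held 82.6%, 74.9% and 71.4% of the arm counts, above the 3p strand in every library. The log2 ratio of 5p to 3p was 1.71 ± 0.31 (SE), with an adjusted p of 0.00300 by the quasi-likelihood test of edgeR with the library as a block and Benjamini-Hochberg adjustment over 194 pairs.

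In arm counts the paralog miR-33b had the opposite preference. miR-33b-5p, with the same seed as miR-33a-5p, had 8, 5 and 11 counts and miR-33b-3p 300, 371 and 427, so the 3p strand was 37.5, 74.2 and 38.8 times the 5p strand. The log2 ratio of 5p to 3p was −5.51 ± 0.40 (SE), with an adjusted p of 6.90e-05 in the same edgeR fit. Of the 194 pairs tested, 80 (41.2%) were called toward 5p and 81 (41.8%) toward 3p at an adjusted p under 0.05 and a log2 ratio of at least 1, so a call in either direction was common. The median absolute log2 ratio was 3.21, larger than that of miR-33a. The difference between the miR-33a and miR-33b ratios was not tested.

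The hairpin of miR-33b had few counts outside its arms. It had 311, 381 and 440 counts, of which 0.965%, 1.31% and 0.455% were outside the arms. Its level was 339 ± 72.3 FPKM, below that of hsa-mir-33a in every library. Its loop between the arms has 18 bases, and it has 15 and 21 further bases at its ends.

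**Figure D4:**
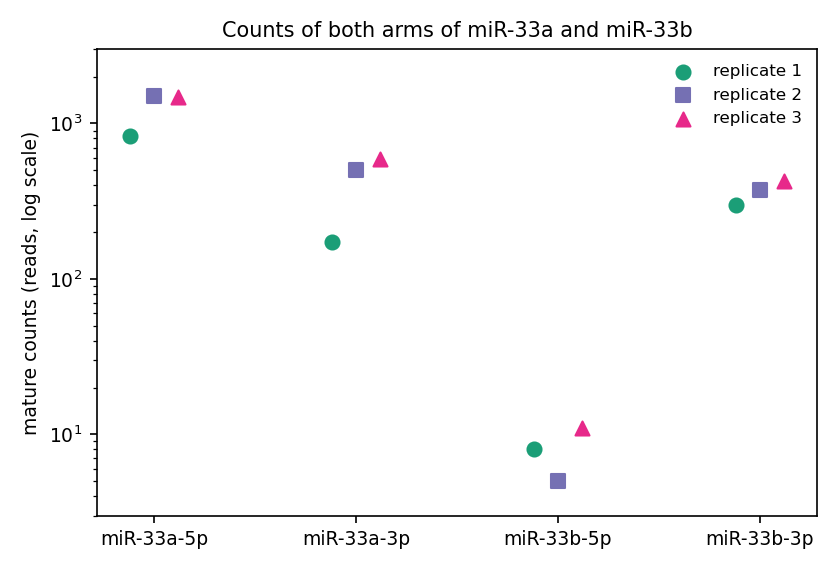
Counts of the 5p and 3p strands of miR-33a and miR-33b in each of the 3 libraries (log scale). The 5p strand is the higher one for miR-33a in every library, with 825 to 1491 counts, and the 3p strand for miR-33b, with 300 to 427 counts.

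The 5 hairpins lie on different chromosomes, given here by GENCODE v29 on build GRCh38. MIR33A lies at chr22:41900944-41901012 on the plus strand, inside an intron of SREBF2 in all 6 transcripts that span it, and in no exon. MIR3155A lies at chr10:6152196-6152277 on the plus strand in an intron of PFKFB3, which encodes a regulator of glycolysis. It overlaps MIR3155B, annotated on the minus strand at chr10:6152207-6152262, and the stem is so close to a palindrome that the mature strands of both share 18 bases.

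MIR663A lies at chr20:26208186-26208278 on the minus strand, in an intron of its host transcript MIR663AHG. MIR7854 lies at chr16:81533902-81533966 on the plus strand in an intron of CMIP. MIR6087 lies at chrX:109054542-109054590 on the plus strand with no overlapping gene, and the nearest annotated gene, RNU6-309P, is 227673 bases away. So 4 of the 5 were intronic and 1 was intergenic. The share of intronic loci over all hairpins was not computed, so this does not set the members apart.

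None of the 5 loci overlapped an annotated ribosomal RNA gene or pseudogene. The nearest were pseudogenes of 5S ribosomal RNA, at 2269329 bases for hsa-mir-7854 and up to 9265746 bases for hsa-mir-33a. For the paralog MIR663B the nearest in GENCODE was RNA5-8SP5, a pseudogene of 5.8S ribosomal RNA, at 3661 bases, and in RefSeq a pseudogene of 18S ribosomal RNA at 771 bases. Among the human miRNAs of the RefSeq table, each checked at 1 position, only MIR10396B overlapped an annotated gene of the 45S ribosomal RNA precursor. It shares the seed of miR-663a. That set had no hairpin for hsa-mir-6087 or hsa-mir-663a, and miRNAs elsewhere in the ribosomal DNA repeat were not counted. The check is not read as placing hsa-mir-3648 or hsa-mir-3687, known to lie in that repeat, outside such a gene.

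Exact matches to ribosomal RNA were short. The longest run shared with any of 554 GENCODE ribosomal RNA transcripts, on either strand, was 11 bases for each of hsa-mir-33a, hsa-mir-3155a and hsa-mir-7854, and the median over listed hairpins with a sequence was also 11. For the mature strands it was 9 for miR-33a-5p, 8 for miR-33a-3p, 9 for miR-3155a, 8 for miR-663a and 11 for miR-7854-3p, beside a median of 10. These transcripts are of 5S, 5.8S and mitochondrial ribosomal RNA and their pseudogenes. The 18S, 28S and 45S sequences were not used here, so the resemblance of miR-6087 to 28S ribosomal RNA was not measured. The same limit holds for the other members, also for miR-663a, whose hairpin had no sequence here.

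Hairpins known to lie in or resemble the ribosomal DNA were described as a list of 11 names, of which 5 hairpins had a row. hsa-mir-6087 and hsa-mir-663a had pooled outside shares of 80.6% and 79.1%. hsa-mir-663b, with 24, 23 and 20 counts, had 1.49%, and hsa-mir-3687, with 322, 198 and 177 counts, had 4.45%. hsa-mir-3648 had 79, 96 and 71 counts and no listed arm. Of the 4 hairpins with a listed arm the 2 above 50% are the members, which were selected on this share, and the 2 others were at 4.45% or below. The median of 41.8% therefore rests on the selection. Over the 317 hairpins with the minimum count, which hsa-mir-663b did not reach, the median was 0.242% and 5 were above 50%.

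Hairpins of miRNAs known to act on cholesterol genes were described as a list of 15 names, of which 14 had a row. Of the 10 whose arms have a single row each, hsa-mir-33a, selected on this share, was above 50%, and the other 9 were between 0% and 3.12%. The median was 0.252%, next to 0.242% over the 317 hairpins. By level hsa-mir-33a was among the lower members of the list: hsa-mir-148a had 834013 ± 301372 FPKM, hsa-mir-27a 95143 and hsa-mir-223 65575, while hsa-mir-33b, hsa-mir-96, hsa-mir-122 and hsa-mir-144 had 339, 116, 57.7 and 32.3 FPKM.

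The predicted folds of the members differed from each other. Minimum free energy, computed with RNAfold, was −36.4 kcal/mol for hsa-mir-33a, −70.2 for hsa-mir-3155a and −27.1 for hsa-mir-7854. Per base, 1 of 260 hairpins with a sequence was more stable than hsa-mir-3155a, 65 were more stable than hsa-mir-33a and 175 more than hsa-mir-7854. hsa-mir-3155a had 87.8% of its bases paired and a longest unbroken helix of 22 pairs, against medians of 72.7% and 10. hsa-mir-7854 had 73.8% and 7, and hsa-mir-33a 81.2% and 14.

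Base composition also varied, with a GC content of 47.8% for hsa-mir-33a, 65.9% for hsa-mir-3155a and 53.8% for hsa-mir-7854, beside a median of 53.5% over the 260 hairpins. miR-663a was 90.9% GC, a level reached by 4 of the 679 listed mature sequences, itself included. No exact copy of the 3 hairpin sequences or of the 5 mature sequences was found in a GENCODE transcript other than the miRNA's own gene. The longest run that hsa-mir-33a shared with another miRNA hairpin was 13 bases, with MIR148B.

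The hairpin whose counts per 1000000 hairpin counts (CPM) were nearest over the 3 libraries, by Euclidean distance of log2(CPM + 1), was hsa-mir-652 for hsa-mir-33a (distance 0.151, outside share 0.600%) and hsa-mir-197 for hsa-mir-6087 (0.295, 1.51%). It was hsa-mir-378g for hsa-mir-3155a (0.0718, 0%), hsa-mir-3605 for hsa-mir-663a (0.304, 0.699%) and hsa-mir-3150a for hsa-mir-7854 (0.268, 5.98%). The likeness covers 3 libraries of 1 group only. The selection only kept these neighbours from being above 50%. Low shares were common, with a median of 0.242% over the 317 hairpins and 30 of them above 10%, so the neighbours' shares are given as values.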

How the data were processed

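Total RNA of 3 MV4-11 libraries was made into small RNA libraries (NEB) and sequenced on an Illumina HiSeq by the authors. The submitters' processing notes name Novoalign 2.08.03 and the builds hg19 and mm10, without roles. The authors deposited whole read counts per miRBase v21 hairpin and mature strand, not normalized. They also deposited FPKM computed from those counts, the feature length and the library total. The rule for counting reads that overlap an arm in part is not given in the sources used here.

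Outside share was hairpin counts minus the summed counts of the listed arms, over hairpin counts. Wilson 95% intervals covered counting error, with reads treated as independent. Arm preference was tested on all pairs with both arms listed, with edgeR 4.0.16 (TMM, filterByExpr, quasi-likelihood, library as a block) in R 4.3.3, after a test on simulated data, with DESeq2 1.42.0 as an alternative. Python 3.11.15, pandas 2.3.3 and RNAfold 2.7.2 were used for the rest. Sequences were matched by name to RefSeq (GRCh38.p14): 3 of 5 hairpins and 5 of 6 arms matched. Positions came from GENCODE v29.

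The members and the lists were chosen with earlier results of these data known. Besides the members and their arms, the text names the 3 hairpins on each side of the threshold, paralogs and antisense partners, list members, the nearest hairpin of each member, and, chosen after their values were seen, hsa-mir-4707, RNU6-309P, MIR10396B, MIR148B and the miRNAs that share a seed. No per-sample columns were left unmapped.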

Additional observations from a re-analysis of the deposited data

How the results depend on the processing

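Of 94 alternative values, 83 were labelled the same and 11 moved, and none reversed. For the members' shares and FPKM, same meant within the SD between libraries. Leaving out 1 replicate cannot move a mean beyond that, so those labels were fixed in advance. For the arm ratios, same meant only an unchanged sign and call. The tally is therefore no measure of robustness, and the values follow. As shares of counts per base, the outside shares became 78.1% (hsa-mir-33a), 69.1% (hsa-mir-3155a), 71.2% (hsa-mir-6087), 53.7% (hsa-mir-663a) and 63.0% (hsa-mir-7854). The number of hairpins was 2 with 100 counts in every library, 11 with a share over 25% and 7 with no minimum count. Pooled counts gave 77.2% for the ribosomal list and 0.440% for the cholesterol list, and exact names only, chosen after seeing the data, gave 79.1%. Leaving out 1 replicate, shares ranged from 67.0% to 69.3% (hsa-mir-33a), 85.4% to 88.0% (hsa-mir-3155a), 78.1% to 82.5% (hsa-mir-6087), 77.8% to 80.1% (hsa-mir-663a) and 70.6% to 83.7% (hsa-mir-7854). The number of hairpins was then 4 to 6: hsa-mir-7854 was lost in each case and hsa-mir-663a without replicate 2, because their summed counts fell under 100, and hsa-mir-3653 was added without replicate 1 or 2 and hsa-mir-3939 without replicate 1. The list medians ranged from 40.9% to 42.3% and from 0.0492% (without replicate 2) to 0.291%, and the cause was not tested. Also leaving out 1 replicate, the miR-33a log2 ratio was 1.45 to 1.91 (edgeR adjusted p 1.98e-10 to 0.0361), and miR-33b −5.66 to −5.24. With no replicate block the miR-33a ratio was 1.63, and the block changed no call on miR-33a or miR-33b. Pairs called were 67 to 85 toward 5p and 70 to 81 toward 3p when 1 replicate was left out, and 84 and 82 with no replicate block. Depth limits hsa-mir-3155a, hsa-mir-663a and hsa-mir-7854, with 36 to 91 counts a library.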
